A study of Mus musculus with 9 samples.

Results

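The low replicated wild-type peaks are the small H3R2me2a peaks that both wild-type libraries called at the same place. H3R2me2a stands for histone H3 whose arginine 2 carries an asymmetric dimethyl group, a modification written by the arginine methyltransferase PRMT6. In work in other cells the mark hinders the complexes that methylate lysine 4 of the same histone tail, so it tends to be low at active promoters and to lie in gene bodies, at distal elements and between genes. A peak list records where chromatin immunoprecipitated with an antibody to the mark gave more sequenced fragments than a background, and a small peak can also be a chance pile of fragments. A peak was chosen when it lay on chromosomes 1 to 19 of wild-type replicate 1, when its summit pileup (the number of fragments stacked at its highest point) was 8 or less, and when it shared at least 1 bp with a wild-type replicate 2 peak of pileup 8 or less and with none above 8. The rule kept 7534 of 155578 low peaks (4.84%), of 160428 peaks on these chromosomes in that list and of 1548240 peaks in the 6 lists together. Another 551 low peaks were left out because a replicate 2 peak above 8 covered them. The members' pileup, their overlap between the wild-type lists and all that follows from these (height, width, shared bases, crowding) chose them, so those values are descriptions and carry no test.

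The study asked where H3R2me2a lies when its writer or an m6A reader is missing. The groups were Prmt6KO cells, without the Prmt6 gene, Igf2bp2KO cells, without the gene for an m6A reader that binds modified RNA, and WT cells, each with 2 H3R2me2a libraries. The cells were mouse bone marrow cells that the design text describes as leukemic, grown in IMDM with fetal bovine serum, interleukin 3, interleukin 6 and stem cell factor. An input library per genotype was not analysed here, and the sources used here give neither the strain, age and number of animals, nor the leukemia driver, nor the form of the deletions. Peak lists measure neither RNA nor the deleted gene, so they check neither the cell type nor the knockouts.

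The lists differed far more in length than in what a member is. On chromosomes 1 to 19 they held 761463 and 396471 peaks in Prmt6KO, 912 and 1124 in Igf2bp2KO, and 160428 and 123625 in WT. A peak needed a pileup of at least 2 and 3 fragments in the Prmt6KO lists and of 4 in both WT lists, and one background value per list underlay all its fold enrichments (0.736 and 1.21 in Prmt6KO, 1.46 and 1.44 in WT). Igf2bp2KO pileups were scaled and are not numbers of fragments. The WT libraries also stood apart from each other outside these chromosomes, with 1919 and 10094 low peaks on chromosome X and 2127 and 38 on Y in replicates 1 and 2. They may therefore differ in source. The labels do not give the sex of the animals, and the cause was not tested. Because a long list overlaps more of any set, the main overlaps are set beside the same list moved along each chromosome. Lists were moved by 20 even steps round the chromosome, and by 10 steps of 20 to 100 kb either way. The moves keep the length of the list and, in the short moves, its regional density. These moved lists are a yardstick and give no p-value. Retention by chromosome, by location, and of single bins, chains and genes has no moved list beside it.

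The promoters under members show what kind of sequence lies there. Only 27 members touched a promoter window of the RefSeq table (250 bases before to 50 after a gene's start, GRCm38.p6, which is mm10), and together they covered part of 29 of the 31396 windows. Each sequence below runs 5′ to 3′ on the gene's strand, with the bases under the member in capitals. Prl2c3, a prolactin-family hormone gene, is shown as a promoter wholly under a member that both Prmt6KO lists kept, and Abcc2, a liver organic anion exporter, as one wholly under a member that neither kept. Eif4g1, a translation initiation scaffold, holds the only window of the 29 with more than 60% G and C, and the member reached just its first 30 bases. Vmn1r159 and Vmn1r160 encode pheromone receptors of the vomeronasal organ and stand for the members in repeated gene families.
Prl2c3, chr13:12800030-12800329, minus strand: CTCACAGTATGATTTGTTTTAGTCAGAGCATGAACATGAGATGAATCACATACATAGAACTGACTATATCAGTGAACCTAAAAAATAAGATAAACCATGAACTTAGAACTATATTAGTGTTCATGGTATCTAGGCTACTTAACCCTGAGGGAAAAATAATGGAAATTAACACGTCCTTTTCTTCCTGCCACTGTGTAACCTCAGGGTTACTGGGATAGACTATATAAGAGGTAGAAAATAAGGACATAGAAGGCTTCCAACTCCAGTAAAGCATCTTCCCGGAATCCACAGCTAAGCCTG
Abcc2, chr19:43782058-43782357, plus strand: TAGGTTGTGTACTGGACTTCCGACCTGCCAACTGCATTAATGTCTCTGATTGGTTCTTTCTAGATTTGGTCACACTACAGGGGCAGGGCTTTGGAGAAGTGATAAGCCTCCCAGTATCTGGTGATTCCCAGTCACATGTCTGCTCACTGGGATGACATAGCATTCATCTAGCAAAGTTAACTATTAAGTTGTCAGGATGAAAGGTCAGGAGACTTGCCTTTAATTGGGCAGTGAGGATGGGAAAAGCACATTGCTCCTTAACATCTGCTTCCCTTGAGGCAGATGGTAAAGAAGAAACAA
Eif4g1, chr16:20672477-20672776, plus strand: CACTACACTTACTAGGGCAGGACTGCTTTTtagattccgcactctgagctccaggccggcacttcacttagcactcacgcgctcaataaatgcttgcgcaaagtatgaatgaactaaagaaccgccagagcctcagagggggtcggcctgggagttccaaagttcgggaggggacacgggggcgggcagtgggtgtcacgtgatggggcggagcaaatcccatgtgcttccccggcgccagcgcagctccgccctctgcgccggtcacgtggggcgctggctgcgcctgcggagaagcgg
Vmn1r159, chr7:22843556-22843855, minus strand: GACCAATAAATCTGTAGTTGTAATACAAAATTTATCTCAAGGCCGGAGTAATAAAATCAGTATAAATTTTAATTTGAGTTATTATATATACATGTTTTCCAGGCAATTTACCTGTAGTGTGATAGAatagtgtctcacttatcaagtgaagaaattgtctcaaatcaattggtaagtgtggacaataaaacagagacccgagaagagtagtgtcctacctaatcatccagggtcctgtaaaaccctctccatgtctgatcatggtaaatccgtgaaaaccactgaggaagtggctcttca
Vmn1r160, chr7:22870974-22871273, plus strand: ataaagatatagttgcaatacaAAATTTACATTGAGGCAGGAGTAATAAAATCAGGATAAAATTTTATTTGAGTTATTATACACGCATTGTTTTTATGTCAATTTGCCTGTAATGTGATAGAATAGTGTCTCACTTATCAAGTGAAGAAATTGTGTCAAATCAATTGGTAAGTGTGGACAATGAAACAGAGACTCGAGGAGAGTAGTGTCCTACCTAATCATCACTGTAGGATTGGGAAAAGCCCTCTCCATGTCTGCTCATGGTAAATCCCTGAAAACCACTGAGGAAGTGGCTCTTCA

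These promoters were poor in CpG. The 29 windows had a median G and C content of 43.0% and a median of 2 CG pairs, against 44.7% and 3 CG pairs in the 539 windows under unreplicated low peaks and 53.0% and 7 CG pairs over all windows. Of the 29, 93.1% held 5 or fewer CG pairs, against 73.3% under unreplicated low peaks and 43.2% of all windows. The 24 windows under replicated peaks above the limit had a median of 2.5 CG pairs, and 79.2% held 5 or fewer. Low CpG was thus not particular to the members. The 29 windows are not all independent, since Cep112 holds 2 of them and those of Tmem144 and Gm40073 lie under 1 member. The Eif4g1 window, with 62.0% G and C and 23 CG pairs, was the exception, and only the part farthest from the gene's start was under the member. The Prl2c3 window held 38% G and C with 2 CG pairs and the Abcc2 window 45.0% with 1. The Vmn1r159 and Vmn1r160 windows were identical at 85.9% of aligned positions, and the 4 Vmn1r windows under members, those of Vmn1r111, Vmn1r159, Vmn1r160 and Vmn1r253, were 82.6% to 92.1% identical in pairs. Reads from such copies can be placed on the wrong one, and the effect of that on the lists was not tested.

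The members had the usual height of their lists, where 97.0% and 98.0% of the WT peaks on these chromosomes had a pileup of 8 or less and the median was 6. In WT replicate 1, 445 had a pileup of 4, 2147 of 5, 2610 of 6, 1638 of 7 and 694 of 8. In WT replicate 2 the overlapping peaks most often had 6 fragments as well, over 2609 members. The authors' fold enrichment, which is theirs and belongs to its own list, ran from 2.03 at a pileup of 4 to 3.66 at 8. Their q-value at a pileup of 8 was 0.0894 in WT replicate 1, so no member reached 0.05 there. The share of low peaks that were replicated grew with height, at 4.17% of those with pileup 4 and 7.34% of those with pileup 8. For 7447 members the overlap was with exactly 1 replicate 2 peak.

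Many peaks still met the rule after one WT list was moved. With WT replicate 2 moved round the chromosomes the rule found 4152.1 peaks on average (4009 to 4366 over 20 moves), and with moves of 20 to 100 kb it found 5110.3 (4928 to 5404 over 10 moves). The 7534 members were thus 1.81 and 1.47 times as many. The WT peaks of a member shared more bases than after any of the moves, while their summit distance lay within the range over the moves round the chromosome and below that over the short ones. They shared a median of 153 bases, against 129 to 136 over the moves round the chromosome and 133 to 142 over the short moves. Their summits lay a median of 129 bp apart, against 129 to 136 bp and 132 to 139 bp, and 39.98% had summits within 100 bp, against 36.9% to 40.5% and 36.2% to 38.6%. Because the rule is also met after the moves, single members are not read as sites of the mark.

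Members were somewhat wider than other low peaks. Their median width was 252 bp, against 216 bp for the 147493 unreplicated low peaks and 851.5 bp for the 754 replicated peaks above the pileup limit (pileup above 8 in WT replicate 1, overlapping a replicate 2 peak above 8). The peak caller's minimum of 200 bp applied to 32.3% of members and to 43.4% of unreplicated low peaks. Wider than 400 bp were 17.5% of members and 7.79% of unreplicated low peaks. A wide peak meets another list more easily, and the moved lists showed that too: peaks passing the rule after moves round the chromosome had a median of 234.3 bp with 11.8% above 400 bp, and after short moves 241.1 bp with 14.4%.

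The Prmt6KO lists overlapped a minority of the members, yet more than the same lists did after being moved. Prmt6KO replicate 1 overlapped 2151 members (28.6%, Wilson 95% interval 27.5 to 29.6), against 21.5% of all WT replicate 1 peaks. Prmt6KO replicate 2 overlapped 1964 (26.1%, 25.1 to 27.1), against 15.1% of all WT replicate 1 peaks. These intervals cover counting error only. Moved round the chromosomes, the replicate 1 list still overlapped 18.1% of members and the replicate 2 list 9.43%, and moved by 20 to 100 kb they overlapped 21.7% and 14.9%. In both libraries the share in place lay above every one of these moves. The deposited lists thus reached 1.58 times the replicate 1 share and 2.76 times the replicate 2 share after moves round the chromosome, and 1.32 and 1.75 times after the short moves. The ratio differed more between the 2 libraries than the shares did.

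Overlap with both Prmt6KO lists stood further from the moved lists as a ratio, but not in percentage points. It was 5.55 times the share after moves round the chromosome and 2.05 times that after short moves. Both overlapped 907 members (12.04%), against 4.82% of all WT replicate 1 peaks and 3.42% of unreplicated low peaks. With both lists moved by the same step, 2.170% of members were overlapped by both after moves round the chromosome and 5.86% after short moves. A further 1244 members met a peak of replicate 1 alone and 1057 of replicate 2 alone. Outside the 1-Mb bins that hold 10 or more members, both lists overlapped 6.80% of the remaining 6236. Neither list had a peak over 4326 members (57.4%), against 69.8% of unreplicated low peaks, and against 74.6% and 69.3% of members with moved lists.

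**Figure D1:**
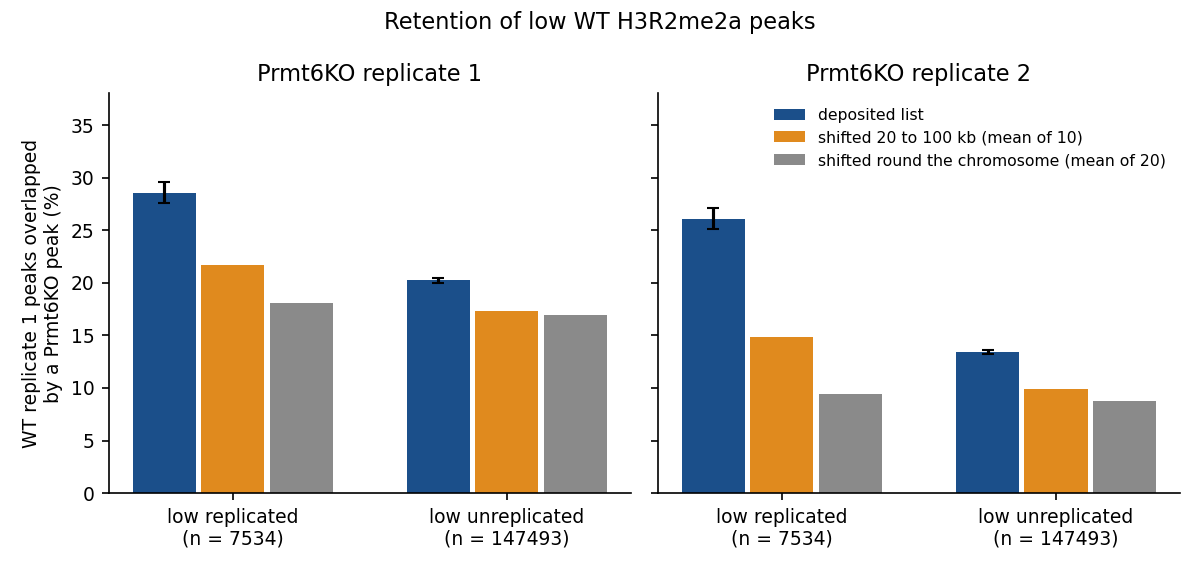
Percent of WT replicate 1 peaks overlapped by 1 bp or more by a peak of each Prmt6KO list, for low replicated and low unreplicated peaks. Blue bars are the deposited lists with Wilson 95% intervals, orange bars the mean of 10 moves of 20 to 100 kb, and grey bars the mean of 20 moves round the chromosome. Low replicated peaks reach 28.6% and 26.1%, with the orange bars at 21.7% and 14.9%.

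Retention was higher among members than among low peaks without a partner in WT replicate 2. The Prmt6KO lists overlapped 27.3% ± 1.76 of members and 16.8% ± 4.79 of unreplicated low peaks (SD, n = 2 libraries). The difference was 8.33 percentage points in Prmt6KO replicate 1 and 12.6 in replicate 2, 10.5 on average, higher in 2 of 2 libraries. Moved by 20 to 100 kb, the lists overlapped 17.4% and 9.90% of unreplicated low peaks. The same moves gave 21.7% and 14.9% of members, so part of the difference is present at wrong positions too. An exact two-sided permutation test that exchanges the classes within each library gave p = 0.5, the smallest that 2 libraries allow. Compared within classes of equal pileup and width, the difference averaged 9.16 points. Outside the 1-Mb bins that hold 10 or more members it averaged 5.32 points (3.78 and 6.87).

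Replicated peaks above the limit were retained more often. Prmt6KO peaks overlapped 94.6% and 97.6% of those 754. The same lists moved by 20 to 100 kb still overlapped 56.5% and 52.0% of them, and moved round the chromosome 36.4% and 20.9%. In place they thus reached 1.67 and 1.88 times the share after short moves, against 1.32 and 1.75 times for members. At the limit itself, with the other WT list at 8 or less, members of pileup 8 in WT replicate 1 were retained at 40.5% in both Prmt6KO lists (694 peaks), and peaks just outside it, of pileup 9, at 52.1% and 53.4% (305 peaks).

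Within the members, height and width went with retention. At a pileup of 4 in WT replicate 1, 21.6% met a peak of Prmt6KO replicate 1 and 19.3% one of replicate 2, and at 8 both shares were 40.5%. Members of 200 bp were retained at 20.7% and 18.2%, and those wider than 400 bp at 46.3% and 48.0%. The short moves gave 16.9% and 10.7% for members of 200 bp and 33.4% and 25.1% for those wider than 400 bp, so part of the gradient is present at wrong positions too.

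**Figure D2:**
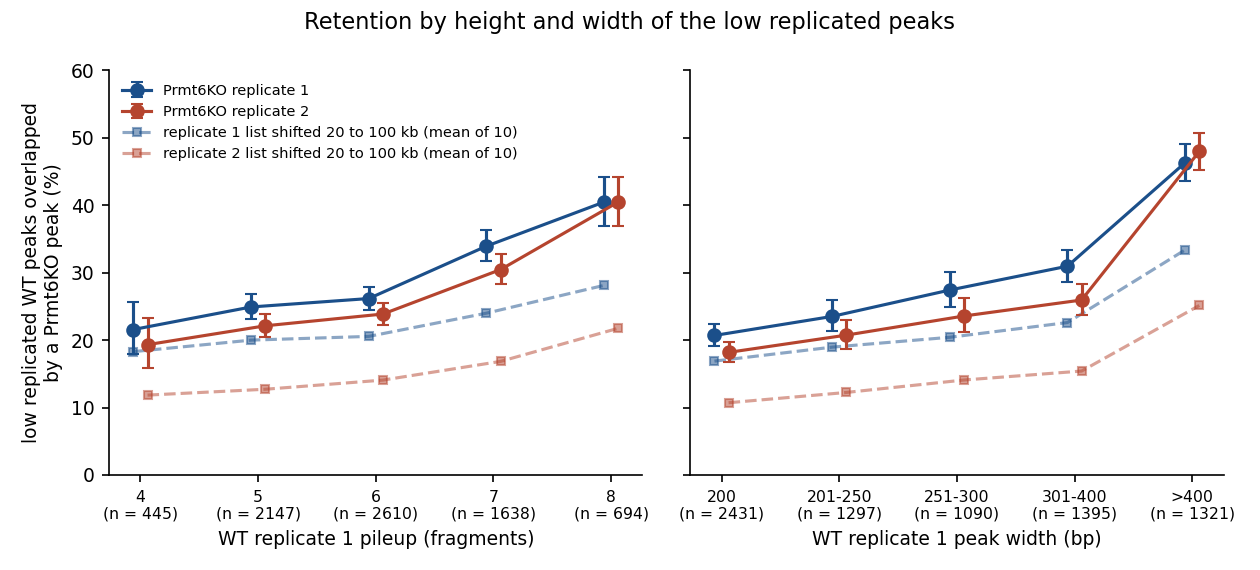
Percent of low replicated WT peaks overlapped by a Prmt6KO peak, by WT replicate 1 pileup in fragments (left) and WT replicate 1 width in bp (right), with n below each class. Circles are the deposited lists with Wilson 95% intervals and squares the mean of 10 moves of 20 to 100 kb. In both libraries the highest class lies above 40% and the lowest near 20%.

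The Prmt6KO peaks over members were themselves mostly small, with a tail of high ones. Their mean pileup was 3.85 fragments in Prmt6KO replicate 1 and 5.55 in replicate 2, against 3.25 and 4.71 for the peaks met after moves round the chromosome. Peaks above 8 fragments lay over 46 members in replicate 1 and 148 in replicate 2, against 2.75 and 6.45 after those moves, and reached 19 and 23 fragments. Of these members, 38 of 46 and 116 of 148 lay in 1-Mb bins with 10 or more members. Prmt6KO peaks with a q-value of 0.05 or less lay over 157 and 267 members, against 10.85 and 13.55 after moves round the chromosome. These were 7.30% and 13.6% of retained members, against 1.04% and 2.36% of retained unreplicated low peaks. Short moves were not set beside these heights and q-values, so the part of crowding in the contrast was not tested. Summits of members and of the Prmt6KO peaks over them were a median of 137 and 147.5 bp apart. After moves round the chromosome the medians were 144.6 and 144.1 bp, so the median in place was lower in replicate 1 only. Summits lay within 100 bp for 38.1% and 35.6% of retained members, against 35.0% and 35.1% after those moves.

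Few members met an Igf2bp2KO peak. These lists overlapped 55 members (0.730%, against 0.448% of all WT replicate 1 peaks) and 53 (0.703%, against 0.497%), with 8 members in both lists and 100 in either. The 8 were 0.106% of members, against 0.0199% after moves round the chromosome and 0.256% after short moves. For unreplicated low peaks the share in both lists was 0.0183%. Neither list had a peak over 98.7% of members, against 99.1% after short moves and 99.93% of unreplicated low peaks. Retention averaged 27.3% ± 1.76 in Prmt6KO and 0.717% ± 0.0188 in Igf2bp2KO (SD, n = 2 libraries each), a difference of 26.6 points. The exact two-sided permutation test gave p = 0.33, the smallest that 2 libraries against 2 allow. The difference was small with lists of equal length: when each Prmt6KO list was cut to as many of its strongest peaks as the Igf2bp2KO list of the same number has, 912 and 1124, the retained members numbered 78 (1.04%) and 96 (1.27%), and the difference was 0.438 points. Igf2bp2KO lists moved by 20 to 100 kb overlapped 0.488% and 0.676% of members, and moved round the chromosome 0.0312% and 0.0352%. In place they overlapped 0.0393% and 0.0475% of unreplicated low peaks.

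Of the 100 members that met an Igf2bp2KO peak, 70 also met a peak of both Prmt6KO lists, and 7 met a peak of all 4 knockout lists. No moved lists were set beside the 70 and the 7, so these are not read as shared sites. Of those 7, 2 lay in the zinc finger gene Zfp978. At chr4:147346502-147347433 (932 bp) the pileup was 9 and 9 fragments in Prmt6KO, against 6 and 7 in WT. At chr4:147370571-147371210 it was 6 and 5 fragments in Prmt6KO, against 8 and 7 in WT. Another 3 lay on chromosome 5 near Gm10354, Gm21149 and Speer4d, of which the first, at chr5:14971697-14972665, had 13 and 13 fragments in Prmt6KO, against 8 and 6 in WT. The remaining members lay 866 bp from Gm15319 on chromosome 8, in a defensin neighbourhood, and 26679 bp from Cyp2c29, a cytochrome P450 gene, on chromosome 19. Pileups of the 2 genotypes rest on different backgrounds and are given side by side, here and below, with no direction read from them.

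The members were crowded. The next member lay a median of 65.3 kb away, against 150.3 kb for peaks passing the rule after moves round the chromosome and 101.6 kb after short moves. Another member lay within 10 kb for 22.2% of them, against 6.75% and 14.1%. Linked at 10 kb, 5864 members (77.8%) stood alone, and 66 chains of 5 or more held 538 members. The longest chains had 21 members each, 1 spanning 36.2 kb at Chil4 on chromosome 3 and 1 spanning 66.8 kb on chromosome 13 with no protein-coding gene in it. Of the chain at Chil4, which encodes a chitinase-like protein, 14 and 13 members were retained in Prmt6KO replicates 1 and 2, and of the chromosome 13 chain 17 and 18.

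A few 1-Mb bins carried much of this crowding. Bins with 10 or more members numbered 57 and held 1298 members (17.2%), against 8.35 bins after moves round the chromosome and 26.0 after short moves. In those bins 17.5% of the low WT replicate 1 peaks were members, 1.81 times the share after short moves, and in all other bins 4.21%, 1.42 times. The bins were picked by their count of members in place, which raises the first ratio and lowers the second. The 2 ratios are therefore not compared. The same bins held 551 of the 754 replicated peaks above the limit. Within 10 kb of a WT replicate 1 peak above 8 lay 15.2% of members, against 5.36% after moves round the chromosome and 4.43% of unreplicated low peaks.

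**Figure D3:**
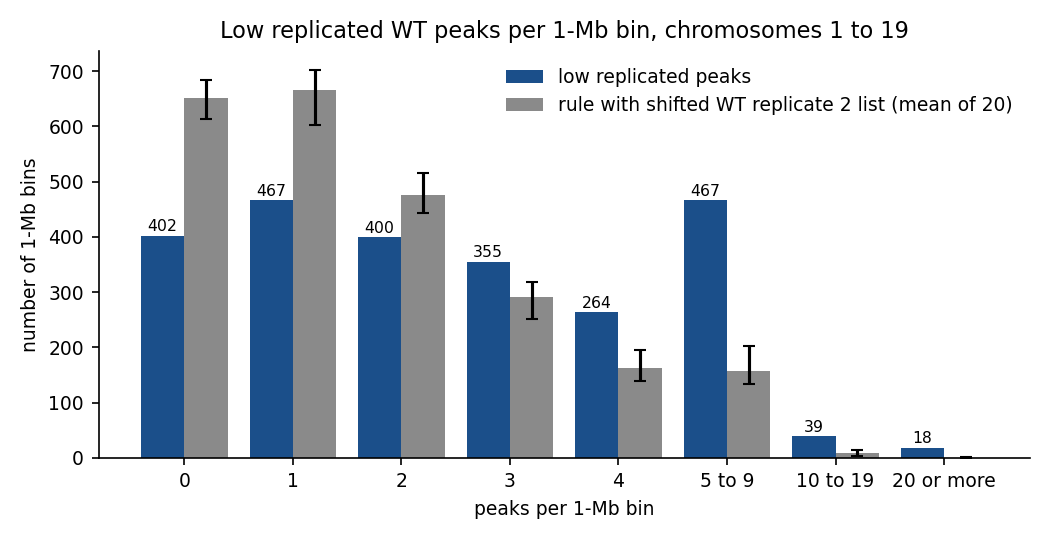
Number of 1-Mb bins with a low WT replicate 1 peak, by how many low replicated peaks they hold (blue), beside the mean over 20 moves of WT replicate 2 round the chromosomes (grey, with whiskers from the lowest to the highest move). Bins with 20 or more peaks number 18, against a mean of 0.4 after the moves, and bins with none number 402, against 651.85.

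The densest bins are given with some of the genes they hold. The first was 147 to 148 Mb of chromosome 4, with 115 members among 334 low peaks and the zinc finger genes Zfp978, Zfp984 and Zfp982. Bins at 146 and 145 Mb of the same chromosome held 84 and 53. The bin at 85 Mb of chromosome 1, with the interferon-induced nuclear body genes Sp110, Sp140 and Sp100, held 84. Chromosome 8 at 20 Mb, a defensin neighbourhood, held 66, and chromosome 3 at 106 Mb, with Chil3 and Chil4, held 60. Chromosome 13 at 12 Mb, with Prl2c3, held 48, chromosome 7 at 15 Mb, with the oocyte homeobox genes Obox1, Obox2 and Obox3, held 47, and the Vmn1r bins of chromosome 7 at 22 and 20 Mb held 41 and 30. These 10 bins together held 628 members (8.34%).

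Retention followed the crowding. In bins with 20 or more members (816), Prmt6KO peaks lay over 64.2% and 69.4% of them. In bins with 1 to 4 members (3388) they lay over 23.02% and 17.56%. Moving the Prmt6KO lists by 20 to 100 kb left 48.3% and 44.7% in the crowded bins, and 17.9% and 9.86% in the sparse ones. Outside the bins with 10 or more members, 23.5% and 19.7% of 6236 members were retained, against 18.2% and 10.8% after short moves. In the dense bins Prmt6KO peaks also lay over 32.1% and 27.6% of unreplicated low peaks, against 19.7% and 12.9% elsewhere.

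**Figure D4:**
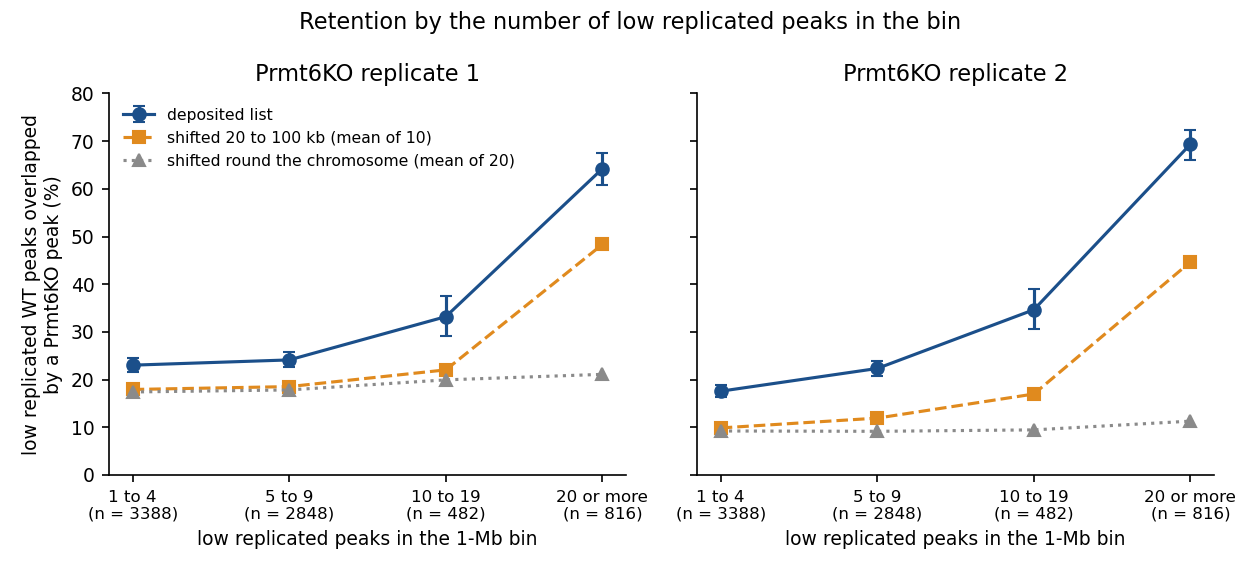
Percent of low replicated WT peaks overlapped by a Prmt6KO peak, by the number of such peaks in their 1-Mb bin, for each Prmt6KO library. Circles are the deposited list with Wilson 95% intervals, squares the mean of 10 moves of 20 to 100 kb and triangles the mean of 20 moves round the chromosome. The deposited and short-moved lists climb together to 64.2% and 48.3% in replicate 1 and to 69.4% and 44.7% in replicate 2, and the triangles stay between 9.15% and 21.1%.

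The 10 bins differed in how much they kept. The defensin bin of chromosome 8 kept 86.4% of its 66 members in both Prmt6KO libraries, and the Sp100-family bin of chromosome 1 kept 83.3% and 81.0% of 84. The densest zinc finger bin of chromosome 4 kept 73 and 92 of 115. The Vmn1r bin at 22 Mb of chromosome 7 kept 46.3% and 43.9% of 41, and the one at 20 Mb 26.7% and 56.7% of 30. The Prmt6KO lists held 555 and 445 peaks in the defensin bin and 667 and 494 in the Vmn1r bin at 22 Mb. No moved lists were set beside single bins. In the 10-Mb windows around the defensin and Sp100-family bins, 67.2% and 76.6% of members were retained, averaged over both libraries. Moves of 20 to 100 kb still gave 51.7% and 47.7% there.

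Chromosomes ranged from 2.103 members per Mb on chromosome 11 to 4.23 on chromosome 4. Without the dense bins chromosome 4 had 2.18 per Mb. Retention was highest on chromosome 4 (40.8% and 43.8%) and lowest on chromosome 2 (18.7% and 12.2%). Along chromosome 2, the 6 windows of 10 Mb between 60 and 120 Mb, picked because the Prmt6KO lists are sparse there, held 225 members, of which 33 (14.7%) and 21 (9.33%) were retained. The other 8 windows of chromosome 2 with 20 or more members held 269, of which 55 (20.4%) and 38 (14.1%) were retained, with 2095 to 3498 and 952 to 2299 Prmt6KO peaks per window. The 6 sparse windows held 1508 to 1651 Prmt6KO replicate 1 peaks and 546 to 727 replicate 2 peaks, against medians of 3203 and 1806 over the 183 windows with 20 or more members. Averaged over both libraries, retention was 6.38% to 25% per sparse window and 10% to 32.3% per other window. Moved by 20 to 100 kb, the lists gave 5.96% to 7.8% and 6.86% to 16.1%. The sparse windows were thus low at wrong positions too.

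**Figure D5:**
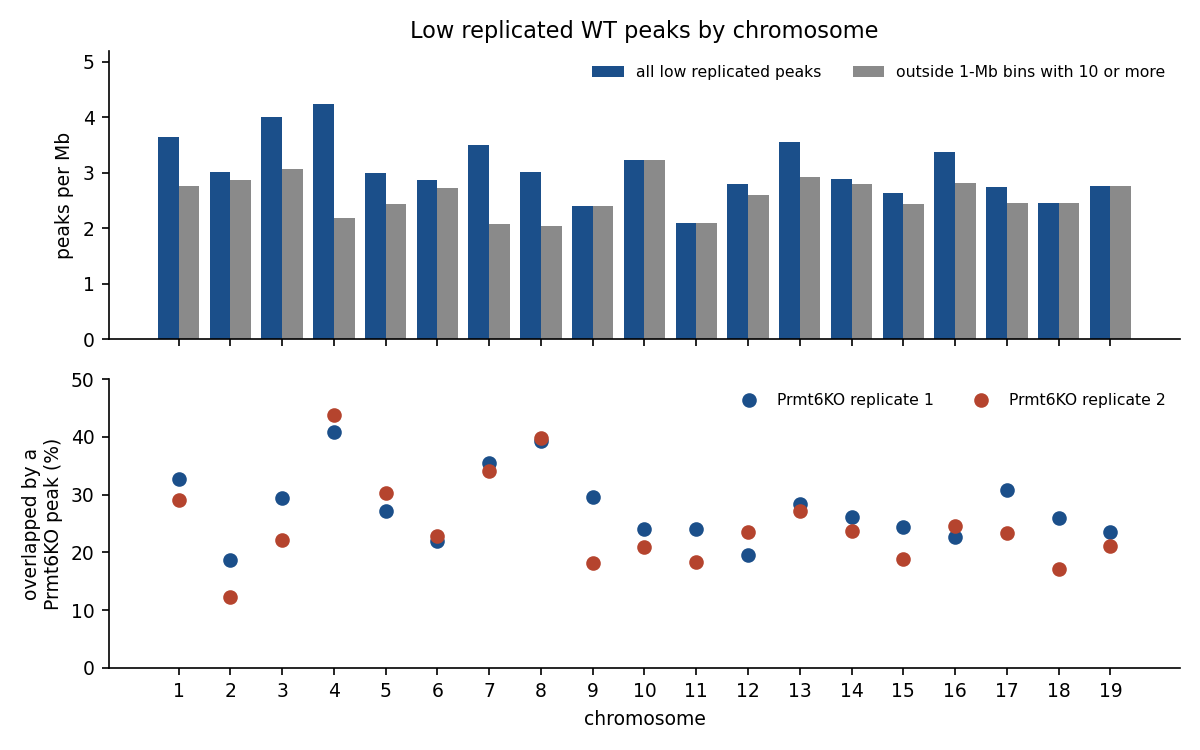
Low replicated peaks per Mb on chromosomes 1 to 19 (top, blue for all and grey for those outside 1-Mb bins with 10 or more), and percent overlapped by a peak of each Prmt6KO library (bottom). Chromosome 4 has the most peaks per Mb, 4.23, and the highest retention, and chromosome 2 the lowest retention, 18.7% and 12.2%.

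Most members lay outside protein-coding genes. By summit, 4744 (63.0%) were intergenic, 2635 (35.0%) in a protein-coding gene body and 155 (2.06%) within 1 kb of either end of such a gene. Intergenic here means between protein-coding genes and can include non-coding genes and pseudogenes. Long non-coding RNA genes overlapped 554 members (7.35%), against 8.98% after moves round the chromosome. Members moved round the chromosomes gave 58.3%, 38.6% and 3.12% on average. The gene-end and gene-body shares in place lay below the range over the 20 moves, 2.68% to 3.86% and 36.3% to 41.7%. Unreplicated low peaks did the same, at 2.37% against 2.94% to 3.20% and at 37.1% against 38.4% to 39.5%, and 60.5% of them were intergenic. Counting any overlap, 183 members (2.43%) touched a gene-end window, against 2.71% of unreplicated low peaks and 9.42% of the replicated peaks above the limit. Promoter windows were touched by 0.358% of members, against 0.705% after the moves, and by 0.346% of unreplicated low peaks, against 0.653% after the moves. Prmt6KO peaks lay over 32.3% and 26.5% of members at gene ends, 27.8% and 24.7% in gene bodies and 28.9% and 26.8% of intergenic ones.

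Pseudogenes went the other way. They overlapped 202 members (2.68%), against 1.25% after moves round the chromosome (0.929% to 1.67%) and 1.35% of unreplicated low peaks. Of the replicated peaks above the limit they overlapped 19.2%, so the higher share is not particular to the members. In the bins with 10 or more members the share was 9.17%, and in the other bins 1.33%. Members at pseudogenes were retained at 49.0% and 53.0%, and 58.9% of them lay in those dense bins.

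Few genes had a member at an end: 172 of 20661 protein-coding genes (0.832%), of which 28 had one retained in both Prmt6KO lists. The 12 genes with the strongest members kept in both lists were Sp140, Trpm8, Gm51571, Prl2c3, Sp110, Gm42346, Gm15319, Tmem267, Zfp992, Gm40364, Zfp534 and Gm7609, ranked by the lowest of the 4 fold enrichments. Of these, 10 lay in bins with 10 or more members, where 37.2% of all members were kept in both lists, against 6.80% elsewhere. At Sp140, whose protein reads chromatin in nuclear bodies, the member at chr1:85588474-85589283 had 8 and 13 fragments in Prmt6KO, against 8 and 8 in WT. At Trpm8, the cold- and menthol-gated channel, the member at chr1:88307541-88308045 had 8 and 11 fragments in Prmt6KO, against 8 and 8 in WT. At Prl2c3 the member that covers the printed promoter had 6 and 9 fragments in Prmt6KO, against 8 and 8 in WT. Across the 12 genes the pileup was 4 to 8 and 6 to 13 fragments in the Prmt6KO libraries.

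The strongest members met by no Prmt6KO peak, by the lower WT fold enrichment, were at Gm51793, Olfr1356, Ugp2 and Vps54 (1 member between the 2 genes), Map3k7, Phc3, Sult2a2, Zfp600, Gm7827, Slc22a23, Vat1 and Dhdds, and 2 of the 12 genes lay in bins with 10 or more members, which held 17.2% of all members. Map3k7 encodes the TAK1 kinase of inflammatory signalling, and its member at chr4:31962551-31962753 had no peak in either Prmt6KO list, against 7 and 8 fragments in WT. Phc3 encodes a Polycomb repressive complex subunit, and its member at chr3:30969784-30970428 (645 bp) had no peak in either Prmt6KO list, against 7 and 7 fragments in WT. Ugp2, an enzyme that makes UDP-glucose, and Vps54, a subunit of a vesicle tethering complex, share the member at chr11:21320768-21321026, with no peak in either Prmt6KO list, against 8 and 7 fragments in WT. With 57.4% of all members met by neither list, such genes are examples and not exceptions.

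Counted over the gene and 10 kb either side, members were most numerous at Zfp978 (45), Zfp993 (41), Gm38510 (34), Chil4 (18), Zfp984 (17), Sp110 (15), Sp140 (15) and Gm7592 (15). Zfp978 and Zfp993 span 267.1 and 478.6 kb in the annotation, and Chil4 18.0 kb. At Zfp978, Prmt6KO replicates 1 and 2 kept 35 and 37 of the 45 members, 32 of them in both. At Chil4 they kept 11 and 12 of 18, and 6 in both. Sp110 and Sp140 overlap and share members.

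Genes of the study's pathways were read at their ends and over the gene with 10 kb either side. Prmt6, Igf2bp2 and Mfsd2a, which encodes a lysophospholipid transporter, had none within 10 kb. Of 102 listed genes in 8 lists (arginine methyltransferases, lysine 4 methylation, m6A proteins, lipid transport, stem cell, myeloid, lymphoid and erythroid genes), 10 (9.80%) had a member in the gene or within 10 kb, against 11.9% of all protein-coding genes. At a gene end 2 of the 102 had one, against 0.832% of all genes. Kdm5a, a demethylase of histone H3 lysine 4, had 0 and 5 fragments in Prmt6KO, against 5 and 6 in WT, 769 bp past one end of the gene. Ythdf3, an m6A reader, had 3 and 0 fragments in Prmt6KO, against 7 and 5 in WT. Here 0 means that no peak was listed.

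By list, 1 of 9 arginine methyltransferase genes had a member in or near it, 2 of 13 lysine 4 methylation genes, 2 of 16 m6A genes, 1 of 14 lipid transport genes, 1 of 16 stem cell genes, 1 of 16 myeloid genes, 2 of 10 lymphoid genes and 0 of 8 erythroid and megakaryocyte genes. The member in Prmt2, another arginine methyltransferase, had no Prmt6KO peak, against 5 and 5 fragments in WT. Inside Kdm1a, the lysine 4 demethylase LSD1, and inside Spi1, the myeloid transcription factor PU.1, the members had no Prmt6KO peak either, against 5 and 5 fragments in WT at Kdm1a and 6 and 7 at Spi1. Fto, an m6A demethylase, had 4 and 0 fragments in Prmt6KO, against 6 and 7 in WT. Erg, a stem cell transcription factor, held 2 members, of which 1 had 2 and 0 fragments in Prmt6KO, against 6 and 6 in WT. Il7r, the interleukin 7 receptor of lymphoid cells, had 0 and 6 fragments in Prmt6KO, against 6 and 7 in WT. Of the 13 members at these 10 genes, 0 were met by both Prmt6KO lists. The share was 12.04% of all members and 6.80% of those outside the bins with 10 or more members. With 13 members, this 0 cannot be told apart from either share.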

How the data were processed

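Chromatin from mouse bone marrow cells was immunoprecipitated for H3R2me2a and sequenced. Among the tools in the submitters' processing notes are MACS2 2.1.0 and HISAT2, the build there is mm10, and settings are not given in the sources used here. The deposited lists give, per library, each peak's position, summit, pileup (a coverage signal in fragments, per the file headers), fold enrichment (a ratio to background) and −log10 p and q, all as the authors' caller gave them. Read totals are unknown, so no depth is given. Peaks of the 6 lists on chromosomes 1 to 19 were joined at 1 bp or more with Python 3.11.15, numpy 2.4.6 and pandas 2.3.3, and the overlap code was tested on simulated lists. Lists were moved by 20 even fractions of each chromosome's span and by 10 steps of 20 to 100 kb. Shares have Wilson 95% intervals. Genes and promoters came from RefSeq GRCm38.p6, and because strand was given for part of the genes both ends were used, 1 kb either side. Promoter identities are from biopython 1.88 global alignments. The unit of both tests was the library, with 2 per genotype, and the labels do not say whether these came from separate animals, so the spread may be technical. Named genes had a member at a gene end and were the 12 with the highest lowest fold enrichment over 4 lists among those retained in both Prmt6KO lists, the 12 with the highest lower WT fold enrichment among those retained in neither, the 8 with most members, listed genes with a member at an end, and Prmt6, Igf2bp2 and Mfsd2a. Other single members and genes were chosen after their values were seen. The members and lists were chosen with earlier results of these data known. No genome sequence was used, so members outside promoter windows have no sequence here.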

Additional observations from a re-analysis of the deposited data

Results flagged for a closer look

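Low replicated peaks also occurred on sequences that the rule leaves out. On chromosome X, 208 of 1919 low WT replicate 1 peaks overlapped a low WT replicate 2 peak and none above 8 (10.8%, against 4.84% on chromosomes 1 to 19). The 2 WT lists held 1919 and 10094 low peaks there, and the effect of that on the share was not tested. On unplaced and unlocalised contigs, 131 of 499 did (26.3%). Chromosome Y had 5 of 2127 (0.235%). No moved lists were set beside these shares, so they are not read as more or less replication, and these peaks entered no other comparison.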

How the results depend on the processing

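The number of members, 7534 under the rule, was 3965 at a pileup of 6 or less, 3041 with 50% of both WT peaks shared and 4164 with the replicate 1 summit inside the replicate 2 peak. Mean retention in Prmt6KO, 27.3%, was 22.2% and 24.9% at pileups of 6 and 7 or less, 10.4% with 50% of both peaks shared, 16.9% with the summit inside the Prmt6KO peak, 2.81% for Prmt6KO peaks with a q-value of 0.05 or less and 12.5% for their strongest peaks, as many as WT replicate 2 has. It was 23.4% outside the 10 densest bins and 21.6% outside the bins with 10 or more members, a setting chosen after seeing the data. Leaving out a Prmt6KO library, or a WT library so that all low peaks of the other counted, gave 16.2% to 28.6%. The ratio to lists moved round the chromosome, 2.170 on average, was 1.53 with short moves, 17.1 for Prmt6KO peaks with a q-value of 0.05 or less, 3.70 for the strongest peaks, and 1.58 to 2.76 leaving out either Prmt6KO library. Members kept a higher mean retention than unreplicated low peaks, and Prmt6KO a higher one than Igf2bp2KO, in every alternative run, from 5.32 to 12.6 and from 0.438 to 27.8 points. With the replicate number as a block the second difference stayed at 26.6 points, p = 0.5 by the exact permutation test, the smallest allowed. The gene-end share was 1.29% to 5.80% with windows of 0.5 and 2.5 kb, and members with another within 10 kb were 16.0% outside the 10 densest bins. Nothing in the labels pairs libraries by number, and with 2 libraries per genotype neither exact permutation test could pass 0.05.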
